A study of Mus musculus with 6 samples.

Results

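Gja1, Panx3 and Tjp1 encode the gap junction protein Cx43, a pannexin channel and the junction scaffold ZO-1. In bone marrow mesenchymal stem and progenitor cells (MSPCs), all 3 had higher mean transcript levels without Snai2 than with it. They were taken by name from a table of 1285 genes that its authors had already selected at an unadjusted p below 0.05. Their presence and their ratios there describe how they were chosen and are no test. MSPCs are stromal cells of the mouse marrow that lie around vessels and feed blood stem cells. Each of the 6 libraries was made from 2000 cells of adult mice aged 8 weeks. The cells were sorted for Nes-GFP, a reporter that marks nestin-expressing stroma, and against CD45, Ter119 and CD31, markers of leukocytes, erythroid cells and endothelium. The sort and the reporter were common to both groups, 3 control and 3 Snai2-/- (mutant) libraries from littermates. Snai2 encodes Slug, a zinc-finger repressor that binds E-boxes. The labels do not say in which cells Snai2 was lost, which genotypes the controls had, or whether each library came from its own animal.

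Gap junctions are clusters of channels that run from the cytoplasm of one cell into that of its neighbour. Each cell contributes a hexamer of connexins, and ions, cyclic nucleotides and inositol phosphates pass through. Cx43 is the main connexin of bone and marrow stroma, where it couples osteoblasts, osteocytes and stromal cells. Pannexins share the membrane topology of connexins without clear sequence homology, and act mainly as channels of a single membrane that release ATP. Panx3 is a pannexin of cartilage and bone, at the cell surface and in the endoplasmic reticulum, and is known for its part in osteoblast and chondrocyte differentiation. ZO-1 carries PDZ domains and ties junction proteins to actin. One of these domains binds the cytoplasmic tail of Cx43 at the edge of gap junction plaques.

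The promoters of Gja1 and Tjp1 are shown because both genes had higher means in cells without an E-box-binding repressor. The sequences are from RefSeq on GRCm38.p6, the assembly that mm10 denotes, and each gives the 250 bases before the annotated start, 5′ to 3′ on the strand of the gene. Of the 3 genes, 2 matched an entry, Gja1 at chr10:56377050-56377299 on the plus strand and Tjp1 at chr7:65371245-65371494 on the minus strand. Capitals mark matches to CANNTG (the E-box core), TGANTCA (the AP-1 element) and GGGCGG (the GC box) on either strand.
Gja1: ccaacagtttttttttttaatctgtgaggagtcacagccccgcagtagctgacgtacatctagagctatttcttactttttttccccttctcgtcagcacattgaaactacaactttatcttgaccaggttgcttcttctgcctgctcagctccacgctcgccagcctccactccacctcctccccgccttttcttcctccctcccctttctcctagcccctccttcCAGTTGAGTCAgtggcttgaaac
Tjp1: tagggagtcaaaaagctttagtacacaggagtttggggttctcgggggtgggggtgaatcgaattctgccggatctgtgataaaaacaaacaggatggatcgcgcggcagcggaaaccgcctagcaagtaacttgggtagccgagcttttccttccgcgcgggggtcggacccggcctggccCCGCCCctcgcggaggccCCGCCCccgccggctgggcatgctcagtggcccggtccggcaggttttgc
In Gja1 an E-box core CAGTTG began 23 bases before the start, and the AP-1 element TGAGTCA that overlaps it began 19 bases before the start. In Tjp1 the GC box, read on this strand as CCGCCC, occurred 2 times, beginning 68 and 50 bases before the start. The Tjp1 window was the richer in G and C, with 63.2% against 50% in Gja1 and a median of 52.4% over all 32851 promoter windows of the same length. CAGGTG, the E-box form preferred by Snail-family repressors, was in neither promoter on either strand, also when the 50 bases after the start were added. In windows of 300 bases CAGGTG was found in 20.2% of all promoters, any CANNTG in 72.3%, TGANTCA in 7.81% and GGGCGG in 35.7%. These matches are letters in a window and not measured binding sites, and other start sites and distal elements were not searched. The GENCODE gene Gja1 begins 30 bases downstream of the RefSeq start, and the principal transcript of Tjp1 begins 5 bases from its RefSeq start. The annotated span of Tjp1 reaches to 65527781, upstream of the window shown.

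Snai2, the targeted gene, had the lower mean in the mutant, as its label gives, with 636 for control and 9.20 for mutant cells per the authors' deposited table. Only group means on the authors' normalized scale were used, so library values, spread and read depth were not analysed here. Of 12 marrow stroma markers, including Nes, Lepr and Cxcl12, only Ebf1 was listed, as lower. The authors' deposited table gives it 362 for control and 210 for mutant cells, a ratio of 0.58. The labelled cell type thus could not be checked against the levels of its defining markers. A gene that is not listed either had a larger p or was not among those tested, and which of these holds is not known. The deposited FDR values correspond to 16718 tests. Of these genes 7.69% were listed, 3.77% as higher and 3.91% as lower in the mutant.

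Cx43 transcripts had the highest means of the 3. For Gja1 (chromosome 10, 56377330 to 56402513, plus strand, GENCODE M21 on GRCm38) the authors' deposited table gives a mean of 1803 for control and 2901 for mutant cells. The same authors' deposited table gives a ratio of 1.61 (log2 0.69), an unadjusted p of 0.00754 and an FDR of 0.423. This ratio was modest among the 631 genes listed as higher, of which 25.7% had a smaller one. As in any bulk profile, more cells that express a gene and more RNA per cell cannot be told apart. No annotated gene overlaps Gja1.

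The channel gene Panx3 had the lowest control mean of the 3 and the largest ratio. For Panx3 (chromosome 9, 37659902 to 37669235, minus strand) the authors' deposited table gives 6.75 for control and 27.5 for mutant cells. Its ratio there was 4.08 (log2 2.03), and the authors' deposited table sets beside it an unadjusted p of 0.0352 and an FDR of 0.612. Of the genes listed as higher, 73.2% had a smaller ratio than Panx3. The largest ratio thus stood beside the largest p of the 3 members. No annotated gene overlaps Panx3.

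The scaffold gene Tjp1 had a ratio close to that of Gja1. For Tjp1 (chromosome 7, 65296165 to 65527781, minus strand) the authors' deposited table gives 19.9 for control and 33.2 for mutant cells. That is a ratio of 1.67 (log2 0.74), and the authors' deposited table reports an unadjusted p of 0.0136 and an FDR of 0.475 for it. Among the genes listed as higher, 29.5% had a smaller ratio than Tjp1. Its span of 231617 bases holds or overlaps 3 other annotated loci, 1 of them on the opposite strand. Whether they overlap its exons was not checked. The library chemistry does not mark strand, so reads of the opposite-strand locus cannot be separated by strand. Those of the loci on the same strand could not be in any library.

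**Figure D1:**
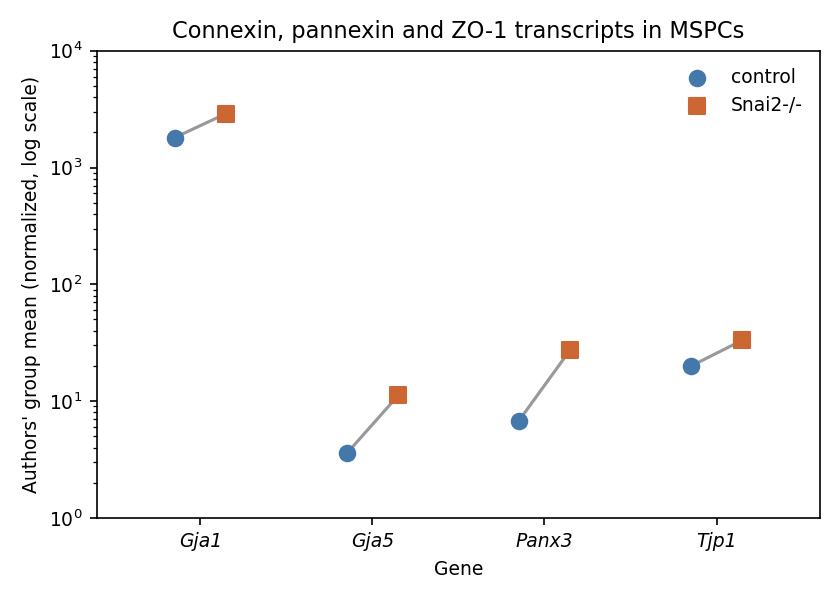
Authors' normalized group means (log axis) of Gja1, Gja5, Panx3 and Tjp1, 1 point for control (circle) and 1 for Snai2-/- (square) MSPCs, with no error bars because only group means were used. Each pair slopes upward, from 1803 to 2901 for Gja1 and from 6.75 to 27.5 for Panx3.

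None of the 3 members passed an FDR of 0.05, and none of all 16718 genes did (0%). At an FDR below 0.1 it was still 0 of 3, beside 0.00598% of all genes. An unadjusted p below 0.01 was reached by 1 of 3, Gja1, beside 2.18% of genes tested, and one below 0.02 by 2 of 3, Gja1 and Tjp1, beside 3.76%. Nothing is read from these counts, since the members were chosen on this contrast. Whether the ratio of Panx3 differs from that of Gja1 could not be tested without the spread of the libraries.

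For a comparison per kilobase, levels were divided by transcript length. This assumes that the authors' scale is not already per length, which is not stated. The rankings of means above and the nearest genes below use undivided means. With the principal transcripts of 3071, 2531 and 7049 bases, the control means per kilobase were 587 for Gja1, 2.67 for Panx3 and 2.82 for Tjp1. In mutant cells they were 944, 10.9 and 4.71. Gja1 was therefore 220.3 times Panx3 per kilobase in control and 86.9 times in mutant cells, or 89.5 and 35.3 times with the union of all annotated exons as length. Panx3 was 0.945 times Tjp1 per kilobase in control and 2.31 times in mutant cells, or 0.772 and 1.89 times with the union of exons. Whether Panx3 and Tjp1 differ beyond the spread of the libraries is not known.

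Each member was also set beside the listed genes nearest to it in both log2 group means, a likeness over 2 groups only. For Gja1 these were Mmp13, the bone collagenase, at a distance of 0.877 and Clu, the chaperone clusterin, at 0.878. Those genes differed from each other in direction, with the authors' deposited table giving ratios of 3.58 and 0.681, the first in the direction of Gja1 and the second not. The nearest to Panx3 were Sema4d, a semaphorin, at 0.146 and Sft2d2, a vesicle transport gene, at 0.338. Tjp1 had the closest neighbours, the clathrin adaptor subunit gene Ap1s2 at 0.0218 and Metrnl, which encodes a secreted factor, at 0.0501. For Ap1s2 the authors' deposited table gives means of 20.2 and 33.2, almost those of Tjp1.

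**Figure D2:**
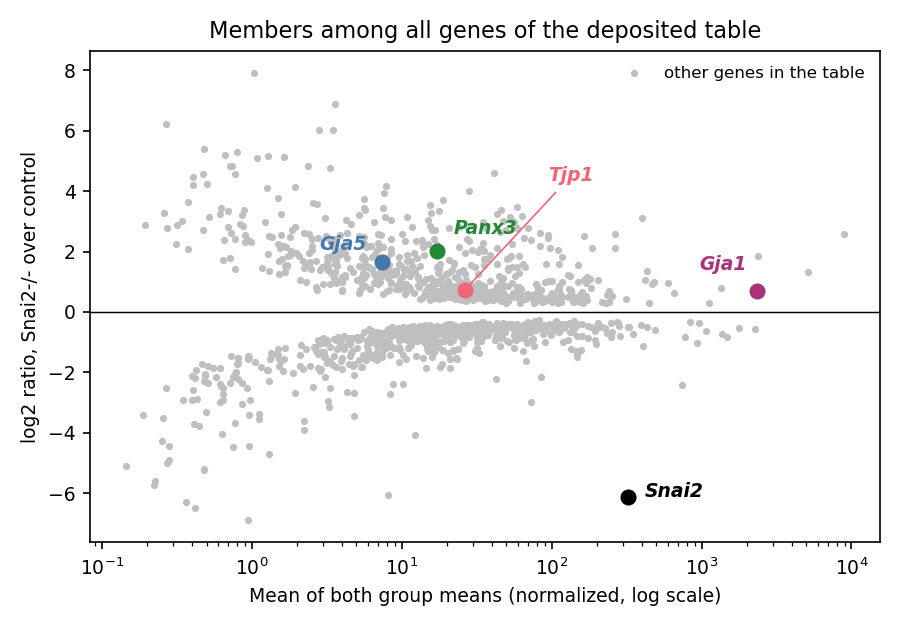
The log2 ratio of Snai2-/- over control means against the mean of both groups (log axis) for the 1278 listed genes whose means both stand above 0.0001, with each gene 1 point. The empty band around 0 follows from the authors' selection at p below 0.05; Gja1 lies far to the right at 0.69, Tjp1 in the dense middle at 0.74 and Panx3 above it at 2.03.

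Besides Gja1, which was chosen, 1 other connexin gene was listed. The 2 make up 10% of 20 connexin genes, near the 7.69% of all genes tested. Both were listed as higher, with a log2 ratio of 1.65 for the other gene. Gja1 was chosen on this contrast, so its direction adds nothing. The other, Gja5, encodes the connexin Cx40 of arterial endothelium and atrial muscle. Its means in the authors' deposited table were 3.56 for control and 11.2 for mutant cells. The ratio was 3.14, at an unadjusted p of 0.00973 and an FDR of 0.451 per the authors' deposited table. Per kilobase of principal transcript, Gja1 was 513 times Gja5 in control and 263 times in mutant cells, or 284 and 145 times with the union of all annotated exons. The span of Gja5 holds or overlaps 4 annotated genes of the opposite strand. Whether they overlap its exons was not checked, so whether their reads enter its low values is not known. Of 11 endothelial markers, 2 were listed, in opposite directions. Flt4 stood at 3.28 for control and 6.85 for mutant cells and Vwf at 23.0 and 1.38, per the authors' deposited table, with listed means that summed to 26.3 and 8.23. Their part in the Gja5 value was not tested. Panx1 and Panx2, the paralogs of Panx3, were not listed.

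Genes of the other junctions split by direction. The lists of connexins, pannexins, ZO scaffolds, tight junction, adherens junction and desmosome genes and Cx43 partners held 92 genes, of which 9 (9.78%) were listed, beside 7.69% of all genes tested. Without the 3 members 6 of 89 (6.74%) were listed, 4 as higher and 2 as lower, a share near the background. Among tight junction genes 2 of 30 were listed. Cgnl1 encodes paracingulin, which binds ZO-1, and the authors' deposited table gives it 3.49 for control and 7.65 for mutant cells, a ratio of 2.19. Jam3, an adhesion molecule whose tail binds PDZ proteins, was listed as lower, and the authors' deposited table gives it 72.4 and 51.7, a ratio of 0.714. Ocln and the claudins on the list were not listed.

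The listed adherens junction genes were the catenins that bind cadherin tails at the same site. They were 2 of the 13 genes on the list (15.4%), beside 7.69% of all genes tested. At an unadjusted p below 0.02 the count was 1, beside 3.76% of all genes tested. For Ctnnb1, beta-catenin, the authors' deposited table gives 265 for control and 358 for mutant cells, a ratio of 1.35. For Jup, plakoglobin, the order was the reverse, with 169 for control, 88.8 for mutant cells and a ratio of 0.527 per the authors' deposited table. Its FDR of 0.336 was the lowest among the listed junction genes of the authors' deposited table. Cdh2 and Cdh11, the cadherins of mesenchymal cells, were not listed. Of 11 desmosome genes 1 (9.09%) was listed, Pkp4, an armadillo protein, to which the authors' deposited table gives 1.67 and 4.83, a ratio of 2.89. Of 14 genes that bind or modify Cx43, among them Src, Cav1, Dbn1 and the kinase gene Csnk1d, 1 (7.14%) was listed. That share stood beside 7.69% of all genes tested. The listed gene was Tjp1, a member chosen on this contrast, so its listing adds nothing. The other 13 were not listed.

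ATP released through connexin and pannexin channels acts on purinergic receptors and is broken down by ectoenzymes. Of 26 such genes 8 (30.8%) were listed, beside 7.69% of all genes tested, with none at an FDR of 0.05. At an unadjusted p below 0.02 the count was 2 of 26, beside 3.76% of all genes, and below 0.01 it was 0, beside 2.18%, so 6 of the 8 had a p between 0.02 and 0.05. These shares were not tested. The receptors were mostly listed as lower: of 19, 6 were listed, 5 lower and 1 higher. Without P2rx5, for which no fold is given, the 5 others had a median log2 ratio of -1.23, beside -0.36 over all listed genes. For the ATP-gated channel gene P2rx7 the authors' deposited table gives 4.55 for control and 1.18 for mutant cells, a ratio of 0.26. For P2rx4, of the same channel family, the authors' deposited table gives 239.9 and 169, a ratio of 0.703. P2rx5 stood at 0.289 for control and, in the authors' deposited table, at 0.0001 for mutant cells, a value that recurs there in 7 genes and against which no fold is given.

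Receptors of the G protein-coupled kind went both ways. P2ry1, a receptor for ADP, had 33.2 for control and 14.2 for mutant cells, which the authors' deposited table gives as a ratio of 0.426. Adora2a, an adenosine receptor, had 14.5 and 4.56, which the authors' deposited table gives as a ratio of 0.315. P2ry14, a receptor for UDP-sugars, was the exception, and the authors' deposited table gives it 269.7 for control and 563 for mutant cells, a ratio of 2.09. The ectoenzyme genes listed, 2 of 7 (28.6%) beside 7.69% of all genes tested, both had higher means in the mutant. At an unadjusted p below 0.02 the count was 0, beside 3.76%. For Entpd3, which hydrolyses extracellular ATP and ADP, the authors' deposited table gives 12.7 and 114, a ratio of 8.96. For Alpl, the alkaline phosphatase of mineralizing bone, the authors' deposited table gives 241 and 618, a ratio of 2.56. Alpl is also counted among the osteoblast and osteocyte genes below.

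**Figure D3:**
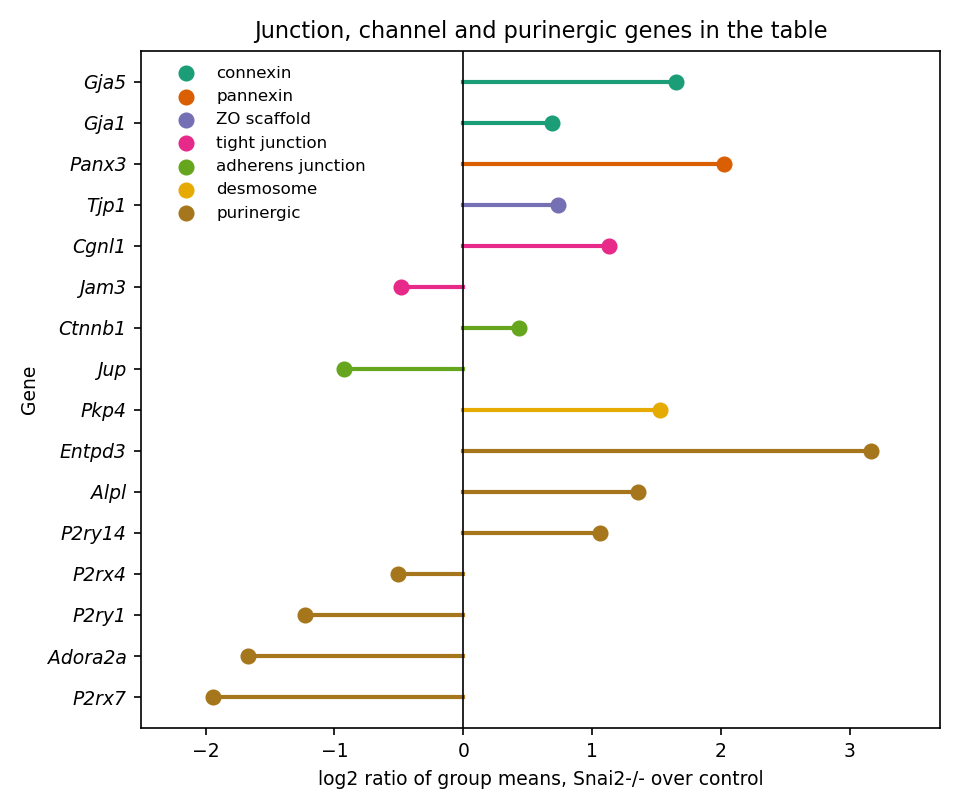
The log2 ratio of Snai2-/- over control means for the listed junction, channel and purinergic genes, 1 line per gene from 0 and coloured by list, with P2rx5 left out because its mutant mean stands at 0.0001. The lines of the connexin, pannexin and ZO genes point right, up to 2.03 for Panx3. All of these except Gja5 are members chosen on this contrast, so their direction adds nothing. Of the 7 purinergic lines 4 point left, down to -1.94 for P2rx7.

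Panx3 and Gja1 are both genes of bone-forming cells, and other genes of that lineage were listed with them. Of 21 osteoblast and osteocyte genes 11 (52.4%) were listed, 10 as higher and 1 as lower. Of all genes tested 7.69% were listed, and 3.77% were listed as higher. The 11 had a median log2 ratio of 2.58, beside -0.36 over all listed genes and 1.19 over those listed as higher. At an unadjusted p below 0.01 the count was 3 of 21, beside 2.18% of all genes tested. Below 0.02 it was 4 of 21, beside 3.76%. The same background stands beside the marker counts that follow, and none of these shares was tested. The 1 listed as lower was Phex, with 223 for control and 92.2 for mutant cells, a ratio of 0.413 per the authors' deposited table. The ratio of Panx3, 4.08, lay below that of the osteocyte matrix gene Dmp1, 8.62, per the authors' deposited table. It lay close to that of the secretory kinase gene Fam20c, 3.93 there, a gene picked after its value was seen. Gja1 at 1.61 lay below each of the 10 osteoblast and osteocyte genes listed as higher, of which Spp1, osteopontin, had the smallest ratio, 2.48 per the authors' deposited table. Panx3 is also a gene of maturing chondrocytes. Of 11 chondrocyte markers 4 were listed, all 4 as higher, and their means summed to 146 for control and 707 for mutant cells. At p below 0.01 and 0.02 the count was 1 and 2 of 11. Runx2, Sp7, Sox9, Acan and Col10a1 were not listed. Neutrophil and monocyte markers had the same direction, with 7 of 13 listed, 7 as higher, and means that summed to 186 for control and 820.1 for mutant cells. At p below 0.01 and 0.02 the count was 0 and 1 of 13. Of 8 markers of other leukocytes and erythroid cells 2 were listed, Cd48 and Car1, both as higher, with sums of 46.9 and 141. Neither had a p below 0.02. Ptprc, the gene of the sort marker CD45, was not listed. The part of these cells in the values of Gja1, Panx3 and Tjp1 was not tested.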

How the data were processed

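Per the labels' protocols, libraries were built with the SMART-Seq v4 and Nextera XT kits, which keep no strand. Trim Galore, HTSeq, edgeR 3.12.0 and mm10 are named without roles, per the submitters' processing notes; the aligner and the statistical model were not given in the sources used here. Per the file headers, the authors' deposited table holds for each gene a p-value, an adjusted p-value (step-up FDR), a ratio and fold change, a least-squares mean per group, and a total. Means and totals are a normalized signal, per the deposited values (0 of 1285 totals are whole, and each is 3 times the summed means). Its "mutant" was taken as Snai2-/- and its "wildtype" as control. The largest deposited p was 0.0499. The number of tests, 16718, was recovered from FDR, p and rank.

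Computed here were log2 ratios of the deposited means, counts over gene lists, means per kilobase on GENCODE M21, and motif matches in RefSeq promoters; the recovery of the number of tests and the motif search were tested on simulated data. No model was fitted, because only group means were used. Depth is unknown, so no interval is given. Nothing states that libraries came from separate animals, so the deposited p-values may measure technical spread. Members, lists and the rule for named genes were chosen with earlier results of these data known. The rule names the members, Snai2, all listed genes of the junction, channel and purinergic lists, up to 5 osteoblast genes of high mean, and the 2 nearest listed genes of each member, predicted genes left out. Fam20c, Flt4, Vwf, Ebf1, Cd48, Car1 and genes named as not listed fall outside it and were chosen after their values were seen. Python 3.11.15, numpy 2.4.6, pandas 2.3.3 and matplotlib 3.10.9 were used.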

Additional observations from a re-analysis of the deposited data

How the results depend on the processing

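No paired analysis was possible because only group means were used, and for the same reason no replicate was left out, no other normalization or count model was run, and whether 1 library decides any value is not known. Pseudocounts and centring on a negative median cannot turn a ratio above 1, so the direction of the members was not tested by them. With pseudocounts of 0.1, 0.5 and 1 the log2 ratio of Panx3 was 2.01, 1.95 and 1.88 against 2.03; with 0.5 and 1 that of Tjp1 was 0.73 and 0.71, and that of Gja1 did not move at 2 decimals. Centring on the median of listed genes, a shift of 0.36, gave 1.04 for Gja1, 2.38 for Panx3 and 1.10 for Tjp1. Of the members 0 passed an FDR of 0.01, 0.05 or 0.1, while 1 (Gja1) had an unadjusted p below 0.01, 2 below 0.02 and 3 below 0.05; the limit of 0.02 was chosen after seeing the data. At p below 0.01 the listed junction and channel genes fell from 9 to 4 of 92, and from 6 to 3 of 89 without the members. Of all genes tested 7.69% were listed and 2.18% had a p below 0.01. The listed purinergic receptors numbered 0 at p below 0.01 and 2 at p below 0.02, against 6, and so did the whole purinergic list, against 8. CANNTG, and TGANTCA and GGGCGG, which were added after seeing the data, were each in 1 of 2 member promoters, against 0 for CAGGTG. With the union of all exons as length, chosen after seeing the data, control means per kilobase were 176 for Gja1, 1.96 for Panx3 and 2.55 for Tjp1.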

Other observations

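Other adhesion and channel genes in the table were picked after their values were seen, and none passed an FDR of 0.05. No list of protocadherins was drawn up, so the genes below are single values that stand for no group. For Pcdha4 the authors' deposited table gives 2.07 for control and 0.179 for mutant cells, and for Pcdhb2 4.92 and 1.58. Pcdhga8 and Pcdhgc3 had ratios of 0.732 and 0.815, and Pcdha11 and Pcdhb10 of 0.224 and 0.578, per the authors' deposited table. Transcripts within the alpha cluster, and within the gamma cluster, share constant exons, and how the authors counted them is not stated, so these values are uncertain. Outside the clusters, Pcdh11x was listed as lower (ratio 0.214) and Pcdh7 as higher (3.56), per the authors' deposited table. For Cdh15, the cadherin of muscle precursors, the authors' deposited table gives 20.2 and 110.5, a ratio of 5.47.

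Cation channels of the TRP family were listed as well. Trpv4, a channel opened by swelling and stretch, had a ratio of 2.37 and Trpv2 one of 1.73, per the authors' deposited table. For Trpc4 the authors' deposited table gives 1.45 for control and 0.0656 for mutant cells.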
